A study of Mus musculus with 10 samples.

Results

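The annexins were examined through the nuclear RNA of 8 annexin genes, Anxa1, Anxa2, Anxa3, Anxa4, Anxa5, Anxa6, Anxa7 and Anxa11. They were taken by name from the 15686 genes of the authors' expression matrix, because Anxa1 differed widely between HB and HE1 in these libraries and its paralogues could be set beside it. The count tables, which list 55487 genes, hold 4 further annexin genes, Anxa8, Anxa9, Anxa10 and Anxa13, of which Anxa8 and Anxa9 are also in the matrix. The contrast of HE1 with HB thus chose Anxa1, and its levels in HB and HE1 are given as a description, without a test.

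The cells came from the mouse ES cell line HM-1, taken before differentiation (ES) and in 4 populations sorted during differentiation in serum, all derived from that line. HB cells, the hemangioblast, were sorted for FLK1 from embryoid bodies after 3 d. The early hemogenic endothelium (HE1, KIT+ TIE2+ CD41-), its later form (HE2, which is CD41+ but otherwise sorted alike) and hematopoietic progenitors (HP, which are KIT+ and CD41+ but TIE2-) were sorted after the blast culture that follows. Each stage had 2 libraries of nuclear enriched, rRNA-depleted RNA, 10 in all, with between 24920434 and 58782055 counts on genes. The labels do not say whether the libraries of a stage came from separate cultures, while the study calls the replicates behind its expression values by stage biologically independent. The p-values set a difference between stages against the spread between libraries of a stage. That spread was estimated from all 10 libraries together and not from the stages compared alone.

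Annexins are cytosolic proteins that bind negatively charged phospholipids in the presence of calcium, and through their conserved core they dock on the inner face of membranes. They take part in endocytosis and exocytosis, in linking membranes to the actin cortex and in resealing torn plasma membrane, often together with EF-hand proteins of the S100 family. Several can also reach the cell surface, where ANXA1 signals through formyl peptide receptors, ANXA2 with its partner S100A10 binds plasminogen on endothelium, and ANXA5 covers exposed phosphatidylserine.

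The genes lie on different chromosomes except for Anxa7 and Anxa11, which are far apart on chromosome 14. In the coordinates of the count tables (mm10), Anxa1 spans chr19:20373428-20390944 on the minus strand and its counted exons sum to 2911 bp. Anxa2 spans chr9:69453620-69491795 on the plus strand with 3731 bp of exons, and Anxa5 spans chr3:36448923-36475894 on the minus strand with 1777 bp. The longest exon sum was that of Anxa7 at chr14:20455260-20480133 on the minus strand, with 5991 bp. Sequence upstream of the start was available from RefSeq (GRCm38.p6) for 6 of the 8 genes, namely Anxa1, Anxa2, Anxa4, Anxa5, Anxa7 and Anxa11, with 2 starts each for Anxa4 and Anxa7, of which the outer one is shown for Anxa7. The 30 bases from 40 to 11 before the start are shown for the gene that varied most between stages (Anxa1), for 2 that were highest in HE1 (Anxa2 and Anxa5) and for the gene that varied least (Anxa7), in lower case, 5′ to 3′ in the direction of the gene, with a TATAAA match in capitals.
Anxa1, chr19:20390682-20390711, minus strand: tcatatccTATAAAatcaggagtccaaccc
Anxa2, chr9:69453643-69453672, plus strand: tcgcgctgggaggatggggcgggTATAAAa
Anxa5, chr3:36475898-36475927, minus strand: cgcaggagcatagaggctaggacgtggcag
Anxa7, chr14:20480144-20480173, minus strand: cctggagctctctatctttgagtccctctg

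TATAAA lay 32 bases before the RefSeq start of Anxa1 and 17 bases before that of Anxa2, and it was not in this window for Anxa4, Anxa5, Anxa7 or Anxa11. Of 32841 RefSeq windows without an undetermined base, 2.08% held it there on the strand of the gene. The RefSeq start of Anxa1 lies 273 bases inside the outermost counted exon, so that the annotation used for counting starts further upstream and the whole window falls in an annotated exon. For Anxa2 the start lies 63 bases inside, and for the other starts shown the distance was 7 bases or less.

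The 250 bases before each start were also searched on both strands for 7 other short motifs, namely the SP and KLF motif GGGCGG, the ETS motif CCGGAAG, the GATA-factor motif AGATAA, the RUNX motif TGTGGT, the TEAD motif GGAATG, the AP-1 motif TGANTCA and the E-box CAGNTG. Anxa2 held an AP-1 match, present in 6.75% of all windows, and Anxa1 held a TEAD match, present in 12.6% and read on the opposite strand. Both are shown, with the match in capitals, because the windows of Anxa1 and Anxa2 shared TATAAA but none of the other motifs. The matches printed here do not overlap those of another motif.
Anxa2, chr9:69453577-69453606, plus strand: tccaagttggaTGAGTCAcccagcagggtg
Anxa1, chr19:20390890-20390919, minus strand: actgcactgaacCATTCCtgtgaggaataa

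GGGCGG, present in 32.7% of all windows, was found 3 times before Anxa2, 3 times before Anxa11, and at 4 sites before the inner start of Anxa7, 1 of which also lies before its outer start, as these windows overlap. The E-box was found once before the inner start of Anxa4, 2 times before the inner start of Anxa7 and once before Anxa11, and the GATA motif once before the inner start of Anxa4. Anxa5 held none of the motifs, nor did the outer start of Anxa4. ETS and RUNX matches were absent from the windows of all 6 genes. The shares of all windows with a match on either strand were 6.91% for ETS, 14.0% for RUNX, 9.99% for GATA, 44.8% for the E-box and 12.4% for TATAAA, and a match or its absence describes these letters only.

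Anxa1 was present in ES cells, almost absent in HB and present again in every later stage. Its level, in CPM (counts scaled to library size) corrected with the TMM method of edgeR, was 18.7 and 19.7 for ES cells, 0.264 and 0.0563 in HB, then 36.0 and 50.9 in HE1, 33.3 and 21.8 across HE2, and 30.2 and 27.6 in HP. Both HB libraries stood far below all others, with no overlap, and rested on 8 and 2 counts, the latter under the floor of 3 counts that was taken as the limit of detection (0.0832 CPM in that library, before TMM scaling). ANXA1, formerly lipocortin, is best known as an anti-inflammatory protein induced by glucocorticoids.

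The mean of Anxa1 was 0.160 ± 0.147 CPM in HB (SD, n = 2, as for all means here) and 43.4 ± 10.6 CPM in HE1, a log2 fold change of 8.11 ± 0.45 (SE). Pooled over the libraries, 2396 counts stood against 10. From ES to HB the gene had moved by -6.93 ± 0.44 on the log2 scale, and from HB to HE2 by 7.46 ± 0.45. Without HB replicate 1, which held 8 of the 10 counts, the log2 fold change from HB to HE1 was 9.44, and without HB replicate 2 it was 7.30. In the same order, that from ES to HB was -8.30 and -6.16, and that from HB to HE2 was 8.81 and 6.67. The size of these changes thus depended on a handful of counts, while the near absence in HB held in each library.

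None of the other 7 members dropped out in HB in this way, whereas Anxa8, which is no member and was low throughout, did (below 2 counts in each HB library). The ratio of the highest to the lowest stage mean was 271 for Anxa1 (resting on its few HB counts), 17.9 for Anxa5, 9.11 for Anxa3, 4.79 for Anxa11, 4.32 for Anxa2, 3.66 for Anxa6, 2.86 for Anxa4 and 1.64 for Anxa7. The lowest stage mean among these 7 genes was 7.76 CPM, for Anxa11 in HB. By their highest stage the 8 genes fell into 3 groups. Anxa1, Anxa2, Anxa3, Anxa5 and Anxa6 were highest in HE1, Anxa4 and Anxa7 in HP, and Anxa11 in ES, and these stages were the same with total counts in place of TMM and in the authors' matrix of stage means. Anxa1 was chosen for its rise to HE1, so that 4 of the other 7 members were highest there. Among all 22596 tested genes, 23.5% were highest in HE1, 15.8% in HP and 33.3% in ES, and among the 12235 at 9 CPM or above in at least 1 stage, as all 8 members were, the share in HE1 was 17.6%.

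**Figure D1:**
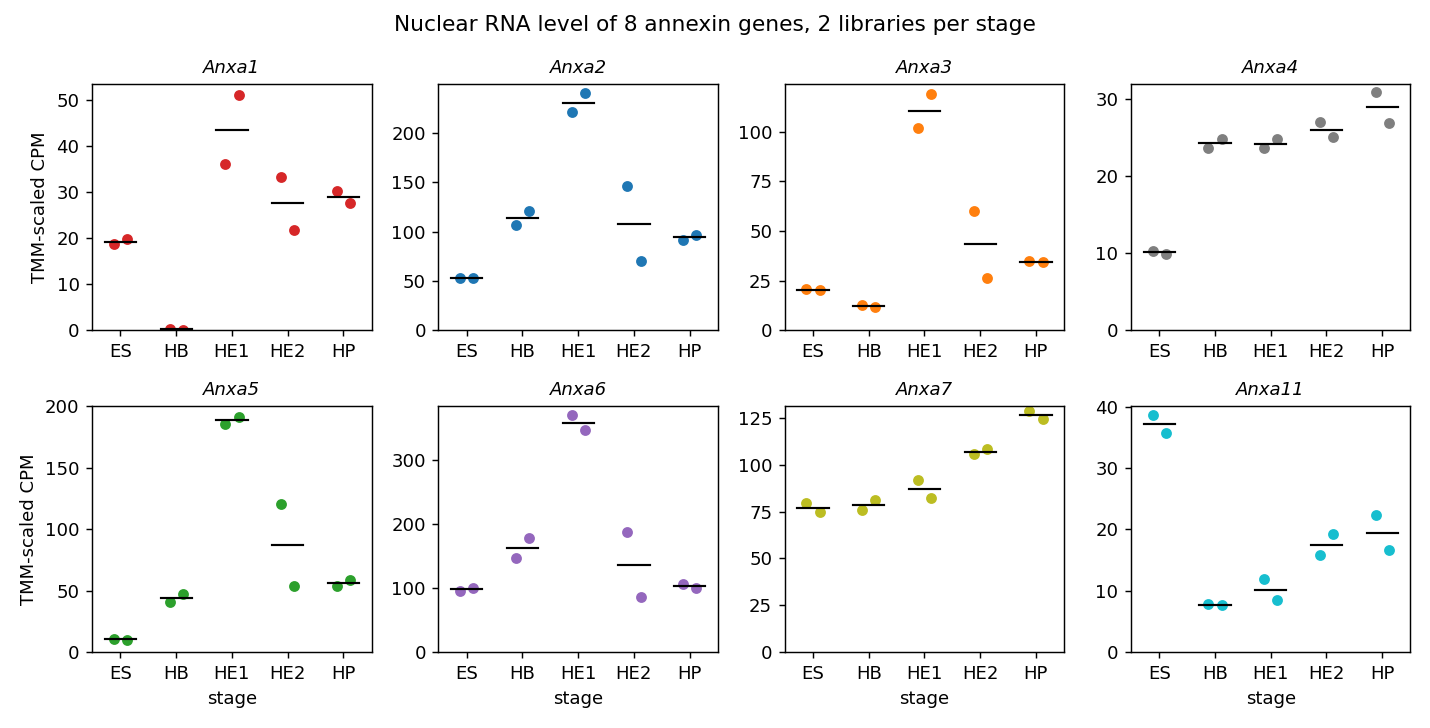
TMM-scaled CPM (vertical axes, linear, 1 scale per gene) of the 8 annexin genes in ES, HB, HE1, HE2 and HP (horizontal axes). Points are the 2 libraries of a stage, with replicate 1 on the left, and bars are their means. Anxa1 is near 0 in HB, 5 genes peak in HE1, Anxa4 and Anxa7 are highest in HP and Anxa11 in ES, and the HE2 libraries lie about 2-fold apart for Anxa2, Anxa3, Anxa5 and Anxa6.

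Anxa2, whose protein forms a complex with S100A10 at the membrane, had 53.3 and 53.4 CPM in ES, 106 and 121 in HB, then 221 and 241 in HE1, 146 and 70.0 across HE2, and 91.8 and 96.3 in HP. HE1 stood above all other libraries, and ES below all others. The HE2 libraries lay on either side of those of HB and HP.

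Anxa3 had 20.6 and 20.2 CPM in ES, 12.8 and 11.5 in HB, then 102 and 119 in HE1, 60.1 and 26.2 across HE2, and 34.8 and 34.1 in HP. Its lowest stage was HB, as for Anxa1, and its HE1 libraries were higher than all others without overlap. ANXA3 is known from neutrophils, where it is found with the granules. A short transcript of uncertain status on the same strand, Gm42603, shares up to 112 bp of exon with Anxa3, and its counts amounted to between 0.969% and 5.44% of those of Anxa3 except in HE1 replicate 2, where they reached 11.8%. Fragments in the shared stretch were counted on both genes.

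Anxa5, whose protein is the reagent used to stain dying cells for exposed phosphatidylserine, had 11.1 and 9.95 CPM in ES, 41.0 and 47.0 in HB, then 186 and 191 in HE1, 121 and 54.0 across HE2, and 53.8 and 58.4 in HP. It thus rose stepwise to HE1, where the libraries lay close together, and HE2 replicate 2 lay within the range of HP. Anxa6, whose protein carries a duplicated annexin core and is tied to endosomes and cholesterol transport, had 95.3 and 101 CPM in ES, 147 and 178 in HB, then 371 and 347 in HE1, 188 and 85.7 across HE2, and 107 and 101 in HP. HE1 again stood apart from all other libraries, whereas HP lay close to ES.

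Anxa4, which is known from secretory epithelia, had 10.3 and 9.90 CPM in ES, 23.7 and 24.8 in HB, then 23.6 and 24.8 in HE1, 27.0 and 25.0 across HE2, and 30.9 and 26.9 in HP. All libraries after ES lay close together, and those of HB and HE1 overlapped. Anxa7, or synexin, an annexin first described in the fusion of secretory granules, had 79.6 and 74.6 CPM in ES, 75.7 and 81.1 in HB, then 91.8 and 82.5 in HE1, 106 and 108 across HE2, and 129 and 124 in HP. Its libraries of neighbouring stages did not overlap from HB onwards, although the steps were small.

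Anxa11, which binds S100A6 and ties RNA granules to lysosomes, had 38.6 and 35.7 CPM in ES, 7.80 and 7.72 in HB, then 11.9 and 8.52 in HE1, 15.8 and 19.2 across HE2, and 22.4 and 16.6 in HP. Like Anxa1 and Anxa3 it was lowest in HB, but no later library reached those of ES, and the libraries of HE2 and HP overlapped. The other annexin genes were low. Anxa8 had 1.63 and 2.01 CPM in ES, 0 and 1 counts in HB, and between 0.0635 and 1.39 CPM later. At these few counts it was called as lower in HB than in ES (edgeR, adjusted p = 0.0022), higher in HE2 than in HB (adjusted p = 0.0429) and lower in HP than in ES (adjusted p = 0.034). No fold is given against HB, where it rests on 1 count. HE2 held 22 and 2 counts, the latter under the floor of 3, so the call of HE2 against HB rests on replicate 1. Anxa9 lay between 0.775 and 3.05 CPM throughout, but its exons overlap those of 6330562C20Rik on the same strand, so that its counts are uncertain, and with that limit it was called as higher in HP than in ES, by 1.39 ± 0.43 on the log2 scale (edgeR, adjusted p = 0.0191). Anxa10 had 17 and 4 counts in ES and 0 elsewhere, Anxa13 had at most 5 counts in a library, and neither was tested.

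The question of each comparison of stages was which annexin genes differed by more than the spread between libraries. Genes were called in edgeR's quasi-likelihood test at an adjusted p under 0.05 (Benjamini-Hochberg over all tested genes) and a change of at least 2-fold. In HB against ES, 3 of the 7 members other than Anxa1 were higher and 1 lower, where 11.5% of all tested genes were called as higher, 17.3% as lower and 28.8% in either direction. Anxa5 rose by 2.06 ± 0.30 on the log2 scale (adjusted p = 0.000372), Anxa4 by 1.26 ± 0.16 (adjusted p = 0.000138) and Anxa2 by 1.09 ± 0.27 (adjusted p = 0.0079). Anxa11 fell by 2.26 ± 0.23 (adjusted p = 3.54e-05), and Anxa1, whose HB libraries the choice of the genes used, is described above and not counted. The log2 fold changes of Anxa6 (0.73 ± 0.28), Anxa3 (-0.75 ± 0.30) and Anxa7 (0.02 ± 0.13) did not pass. Without HB replicate 2 the change of Anxa2 was 0.997, just under the 2-fold limit.

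From HB to HE1, the step that chose Anxa1, 4 of the other 7 members (Anxa2, Anxa3, Anxa5 and Anxa6) met the same thresholds as higher and 0 as lower, where 12.7% of all tested genes met them as higher, 8.19% as lower and 20.9% in either direction. These are descriptive values from which nothing is read, since Anxa1 was chosen by its values in this contrast and its paralogues were taken for their relation to it. The log2 fold changes beside the 8.11 of Anxa1 were 3.19 ± 0.32 for Anxa3, 2.10 ± 0.30 for Anxa5, 1.14 ± 0.28 for Anxa6 and 1.02 ± 0.27 for Anxa2. Anxa11 (0.39 ± 0.22), Anxa7 (0.15 ± 0.13) and Anxa4 (-0.004 ± 0.15) differed by less than 2-fold. Anxa2 and Anxa6 lay close to the 2-fold limit, and without HB replicate 1 they were under it, which left Anxa3 and Anxa5.

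HE2 was compared with HB as a step that the choice of Anxa1 did not use, although it shares the HB libraries. Here Anxa3 and Anxa11 were higher in HE2, with log2 fold changes of 1.83 ± 0.31 (edgeR, adjusted p = 0.00124) and 1.17 ± 0.22 (adjusted p = 0.00273), which makes 2 of the 7 members other than Anxa1 higher and 0 lower, where 9.76% of all tested genes were called as higher and 20.7% in either direction. Anxa1 is again not counted, since its HB values chose it. Anxa5 had 0.99 ± 0.29 with an adjusted p of 0.0253 and missed the 2-fold limit. Anxa7 had 0.45 ± 0.13 (adjusted p = 0.0231), a change under 2-fold. Anxa2 (-0.07 ± 0.26), Anxa6 (-0.25 ± 0.28) and Anxa4 (0.10 ± 0.15) did not pass. The HE2 libraries moved these values, as without HE2 replicate 2 Anxa5 was called, at 1.45, and without HE2 replicate 1 it had 0.30. Anxa3 had 2.31 and 1.12 in the same order and was called in both.

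In HE2 against HE1, Anxa2, Anxa3, Anxa5 and Anxa6 (4 of the 7 members other than Anxa1) were called as lower and 0 as higher. Over all tested genes, 5.39% were called as lower, 3.26% as higher and 8.65% in either direction. The comparison shares the HE1 libraries with that of HE1 against HB. Genes grouped above by their highest mean in HE1 are lower in HE2 by that grouping, so their direction is no separate result. The log2 fold changes were -1.10 ± 0.27 for Anxa2 (edgeR, adjusted p = 0.0289), -1.35 ± 0.30 for Anxa3 (0.0209), -1.11 ± 0.29 for Anxa5 (0.0346) and -1.39 ± 0.29 for Anxa6 (0.0169). Anxa11 had 0.78 ± 0.22 (adjusted p = 0.0446), short of 2-fold, and Anxa1, whose HE1 libraries chose it, had -0.66 ± 0.28 and is not counted. These calls depended on single libraries. Without HE2 replicate 2, without HE1 replicate 2, or with only the 4 libraries compared, 0 of the 4 genes were called, and over all genes the lower calls numbered 98, 260 and 171 in place of 1217. The log2 fold changes without HE2 replicate 2 shrank to -0.64 for Anxa2, -0.86 for Anxa3, -0.63 for Anxa5 and -0.92 for Anxa6. They stayed near their size without HE1 replicate 2, with -1.03, -1.24, -1.09 and -1.44 in the same order, and with only the 4 libraries, with -1.11, -1.37, -1.13 and -1.41. Without either HB library Anxa5 also missed the threshold (adjusted p = 0.0523 and 0.0522), and without HE1 replicate 1 Anxa11 was called as higher, at 1.07.

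The HE2 libraries differed in the same direction for all 4 genes, with replicate 1 higher than replicate 2 by 2.09-fold for Anxa2, 2.29-fold for Anxa3, 2.24-fold for Anxa5 and 2.19-fold for Anxa6. Among all 10236 genes at 9 CPM or above in HE2, the median ratio between the libraries was 1.17 and 3.89% differed by at least 2-fold. For Anxa4 and Anxa7 the ratios were 1.08 and 1.02. Anxa11 differed by 1.22-fold in the opposite direction, and Anxa1 was higher in replicate 1 by 1.53-fold. The summed level of 8 endothelial markers moved the same way, with 2420 CPM in replicate 1 and 1417 CPM in replicate 2, as did that of 10 smooth muscle and fibroblast markers, with 1164 and 823 CPM, while 8 blood markers summed to 1551 and 1637 CPM. Most of the blood sum was Hbb-bh1, an embryonic globin gene, with 1225 and 1063 CPM, and the other 7 blood markers were each higher in replicate 2, with sums of 326 and 574 CPM. No gene of the endothelial or blood lists was at 0 in HE2, and the part of these cells in the annexin levels was not tested. In bulk samples, fewer cells of a type and less RNA per cell cannot be told apart.

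HP lay further from HE1. Anxa2, Anxa3, Anxa5 and Anxa6 were again the 4 genes called as lower and 0 were higher, where 11.2% of all tested genes were lower, 5.35% higher and 16.5% called in either direction. Anxa6 fell by 1.79 ± 0.29 on the log2 scale (edgeR, adjusted p = 0.00193), Anxa5 by 1.75 ± 0.29 (0.00222), Anxa3 by 1.68 ± 0.30 (0.00317) and Anxa2 by 1.29 ± 0.27 (0.00656). The comparison shares the HE1 libraries with the preceding one, and the direction for these 4 genes again follows from their highest mean in HE1. Each HP pair of libraries agreed closely for these genes, with ratios of 1.02 to 1.09. Anxa11 had 0.94 ± 0.22 (adjusted p = 0.0126) and Anxa7 0.54 ± 0.13 (0.0128), both under 2-fold, and Anxa4 had 0.26 ± 0.15 (0.244). Without HP replicate 1, Anxa2 was at an adjusted p of 0.0601, and Anxa11 was called as higher without HE1 replicate 1 (1.22) or HP replicate 2 (1.15).

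Between HE2 and HP, edgeR called 0 of 22596 genes (0.0%), and an unadjusted p under 0.05 with at least 2-fold was reached by 390 genes as higher in HP and 527 as lower. limma-voom called 35 and 27, and DESeq2 107 and 194. No annexin gene was called, and only Anxa5 was under 0.05 before adjustment, with a log2 fold change of -0.64 ± 0.29 (unadjusted p = 0.0483, adjusted p = 0.625, edgeR). The log2 fold change of Anxa1 was 0.07 ± 0.28 (adjusted p = 1.0). Without HE2 replicate 2, the change of Anxa5 was -1.10 (adjusted p = 0.00965).

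HP and ES, the ends of the series, do not involve HB or HE1. Anxa5 was higher in HP by 2.41 ± 0.30 (edgeR, adjusted p = 8.81e-05) and Anxa4 by 1.52 ± 0.16 (adjusted p = 2.5e-05), which makes 2 higher and 0 lower, where 16.7% of all tested genes were higher, 21.9% lower and 38.7% called in either direction. Anxa2 (0.82 ± 0.27, adjusted p = 0.0247), Anxa7 (0.71 ± 0.13, adjusted p = 0.000926) and Anxa11 (-0.93 ± 0.22, adjusted p = 0.00453) changed by less than 2-fold, and without HP replicate 1 Anxa11 was called as lower, at -1.17 (adjusted p = 0.00741). Anxa1 in HP was at 1.51 times its ES mean, with a log2 fold change of 0.59 ± 0.28 that did not pass (adjusted p = 0.103). Anxa6 had 0.08 ± 0.28 (adjusted p = 0.829).

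**Figure D2:**
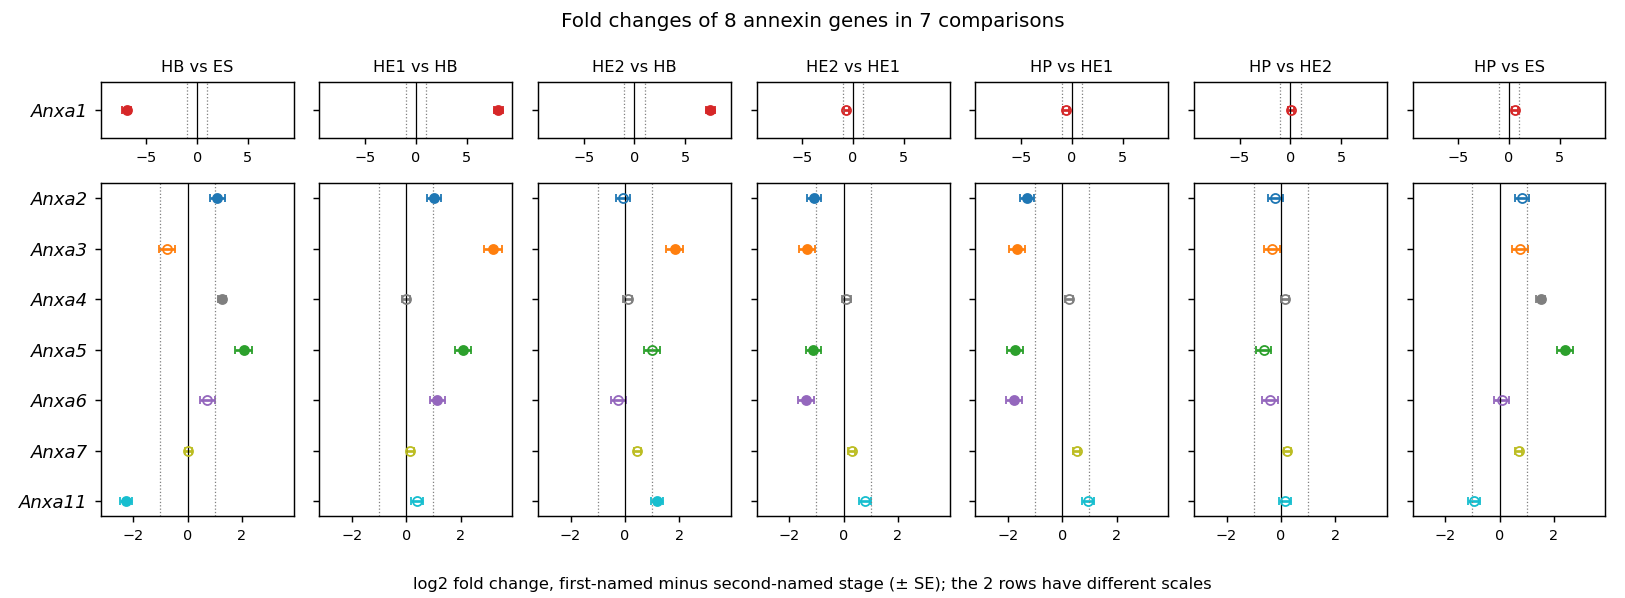
Log2 fold changes of the 8 annexin genes (rows) in 7 comparisons of stages (columns), with Anxa1 above on a wider scale. Points are estimates of the edgeR fit to 10 libraries, bars are SE, filled points met both thresholds (a description in HE1 vs HB, and for Anxa1 against HB or HE1), and dotted lines mark 2-fold. Anxa1 stands apart in the 3 comparisons with HB, Anxa2, Anxa3, Anxa5 and Anxa6 lie right of 0 in HE1 vs HB and left of 0 in HE2 vs HE1 and HP vs HE1, and no filled point appears in HP vs HE2.

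To compare the genes with one another, CPM were divided by the counted exon length in kb (FPKM). The 8 genes summed to 89.9 ± 0.10 FPKM in ES, 134 ± 13 in HB, then 358 ± 5.7 in HE1, 174 ± 74 across HE2 and 144 ± 1.7 in HP. HE1 thus held the most annexin RNA per length and ES the least, without overlap between these and the other stages.

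Anxa6 gave the largest share of the summed FPKM in ES (37.2% ± 1.5), HB (41.2% ± 1.6), HE1 (34.2% ± 2.2) and HP (24.6% ± 0.74). In HE2, Anxa5 lay slightly above Anxa6 in both libraries, with 67.9 against 64.1 FPKM in replicate 1 and 30.4 against 29.2 in replicate 2, which gave mean shares of 27.5% ± 3.5 and 26.2% ± 2.9. These orders depend on the division by length, and by mean share of CPM Anxa7 was the largest in HP and Anxa6 in HE2. The share of Anxa5 was 6.60% ± 0.51 in ES, 18.5% ± 0.04 in HB and 29.6% ± 0.17 in HE1, so that it moved from rank 6 to rank 2. Anxa7, whose mean was 77.1 CPM in ES and 87.1 in HE1, made up 14.3% ± 0.64 in ES and 4.07% ± 0.37 in HE1. The share of Anxa1 was 7.33% ± 0.28 in ES, 0.0431% ± 0.042 in HB and 4.16% ± 0.95 in HE1, which placed it at rank 5 of the 8 genes in HE1 in spite of its large relative rise. The share of Anxa3 there was 8.46% ± 0.78.

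**Figure D3:**
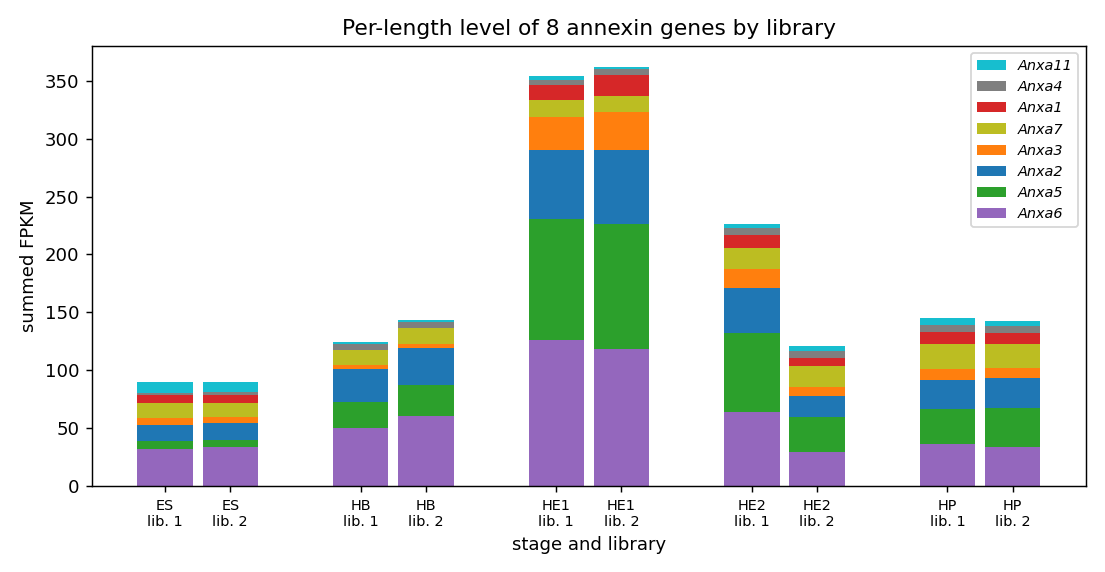
Summed FPKM of the 8 annexin genes in each of the 10 libraries (stacked bars from 0, 1 colour per gene). The sum is largest in HE1 with 354 and 362 FPKM, the HE2 libraries differ with 226 and 121, and Anxa6, Anxa5 and Anxa2 make up most of each bar.

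The partners of annexins did not all follow them. S100a10, the partner of Anxa2, had 56.8 and 56.9 CPM in ES, 114 and 180 in HB, then 95.6 and 120 in HE1, 79.2 and 51.3 across HE2, and 64.9 and 53.3 in HP. Its highest stage mean was that of HB, although the libraries of HB and HE1 overlapped. Anxa2 was at a mean of 114 CPM in HB against 231 in HE1. S100a10 rose from ES to HB by 1.37 ± 0.25 on the log2 scale (edgeR, adjusted p = 0.0017) and fell from HB to HE2 by 1.17 ± 0.25 (adjusted p = 0.0057), a step at which Anxa2 had -0.07 ± 0.26. Per length, the S100a10 mean exceeded that of Anxa2 in each stage, with 121 ± 39 against 30.5 ± 2.8 FPKM in HB and 89.1 ± 14 against 61.8 ± 3.8 in HE1.

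S100a11, whose protein binds ANXA1, had 16.0 and 17.4 CPM in ES, 7.21 and 10.2 in HB, then 33.1 and 37.6 in HE1, 24.1 and 14.6 across HE2, and 18.5 and 15.8 in HP. Like Anxa1, it was lowest in HB and highest in HE1, but it kept 8.72 ± 2.1 CPM in HB. It was higher in HE2 than in HB by 1.15 ± 0.26 (edgeR, adjusted p = 0.0069) and lower in HP than in HE1 by 1.04 ± 0.25 (0.014). S100a6, the partner of ANXA11, had 23.8 and 24.9 CPM in ES and 1.98 and 1.72 in HB, and fell there by 3.72 ± 0.42 (adjusted p = 7.3e-05) as Anxa11 did by 2.26. It was higher again in HE2 by 3.38 ± 0.42 than in HB (adjusted p = 0.00018).

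Of the 8 EF-hand partners listed, all were tested, and 2 were higher and 2 lower in HB against ES, with a median log2 fold change of -0.22 against 0.00 over all genes, of which 11.5% were higher and 17.3% lower. In HE2 against HB, 5 were higher and 1 lower, where 9.76% of all genes were higher and 20.7% called in either direction, with a median of 1.31 against 0.00. Sri, or sorcin, a calcium sensor that binds ANXA7, was among the former at 1.47 ± 0.17 (edgeR, adjusted p = 0.00012). The summed endothelial markers rose at this step as well, from 295 and 244 CPM in HB to 2420 and 1417 CPM in HE2. The part of such cells in the levels of these partners was not tested. The receptors through which extracellular ANXA1 acts were at or under the floor of 3 counts. Fpr1 had 0 counts in all 10 libraries, Fpr2 had 3 counts (0.0991 CPM) in HE1 replicate 2 and 0 elsewhere, and 0 of 5 formyl peptide receptor genes passed the filter on low counts.

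Genes of plasma membrane repair were followed with a list of 16, of which 14 were tested. In HE2 against HB, 5 were higher and 1 lower, with a median log2 fold change of 1.02, where over all genes 9.76% were higher, 20.7% were called in either direction and the median was 0.00. Cav1, a caveolar coat protein, rose by 2.07 ± 0.37 (edgeR, adjusted p = 0.002), Cavin1, which shapes caveolae, by 1.95 ± 0.28 (0.00046), and Ahnak, a giant scaffold that binds the complex of ANXA2 and S100A10, by 1.68 ± 0.24 (0.00043). Syt7, a calcium sensor of lysosome exocytosis, fell by 4.85 ± 0.46 (3.4e-05). In HP against HE1, 1 was higher and 5 were lower, beside 5.35% and 11.2% of all genes, among them Ehd2 with -2.46 ± 0.40 (0.0019), Cavin1 with -1.91 ± 0.28 (0.0011) and Dysf with -3.31 ± 0.61 (0.0037). Between the HE2 libraries, replicate 1 was the higher for Cav1 (11.5 and 6.60 CPM), Cavin1 (292 and 147 CPM) and Ahnak (1254 and 743 CPM). The summed endothelial markers moved alongside, with 295 and 244 CPM in HB and 2420 and 1417 across HE2. So did the sum for smooth muscle and fibroblasts, with 306 and 305 against 1164 and 823 CPM, although Pdgfra of that list fell from 193 and 196 to 3.32 and 1.49 CPM. The part of endothelial, smooth muscle and fibroblast cells in the repair genes was not tested. From HB to HE1, 8 of the 14 met the thresholds as higher and 1 as lower, beside 12.7% and 8.19% of all genes.

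Dysf encodes dysferlin, the calcium-binding protein that recruits annexins to membrane lesions in muscle. It had 13.6 and 16.2 CPM in ES, 56.0 and 50.6 in HB, then 449 and 389 in HE1, 242 and 52.8 across HE2, and 24.0 and 60.5 in HP. The HE1 libraries stood above all others, and those of HE2 differed more than for any of the 8 annexin members, with replicate 1 again the higher. Its log2 fold change in HE2 against HE1 was -1.51 ± 0.57 and did not pass (adjusted p = 0.093).

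ANXA1 was first described as an inhibitor of phospholipase A2, and ANXA5 covers phosphatidylserine once scramblases have exposed it. All 9 listed phospholipase A2 genes were tested, and in HE2 against HB 2 were higher and 1 lower, where 9.76% of all genes were higher and 20.7% called in either direction. Pla2g4a, the cytosolic enzyme that releases arachidonic acid, had 5.23 and 5.62 CPM in ES, 2.08 and 2.59 in HB, then 4.67 and 2.97 in HE1, 41.8 and 64.4 across HE2, and 78.3 and 65.0 in HP. It was high in the CD41+ populations and at 5.62 CPM or less elsewhere, and it rose by 3.81 ± 0.28 from HE1 to HE2 (edgeR, adjusted p = 0.00025), a step at which Anxa1 had -0.66 ± 0.28. Of 11 tested genes of phosphatidylserine exposure and retention, 4 were higher and 0 lower in HE2 against HB, beside the same shares of all genes. The scramblase Ano6 was among them at 1.67 ± 0.15 (adjusted p = 2.7e-05), and Plscr1, named for a scramblase activity, at 1.78 ± 0.21 (0.00016). In HE2 against HB, all 8 blood markers and 6 of the 8 endothelial markers were called as higher as well. The part of such cells in these lists was not tested.

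The glucocorticoid receptor gene Nr3c1 was listed with 7 classic targets, a group to which Anxa1 itself is known to belong. In HB against ES, 2 of the 8 were higher and 1 was lower, where 11.5% of all genes were higher and 17.3% lower. Tsc22d3, the best known target, rose by 3.26 ± 0.25 (edgeR, adjusted p = 6.6e-06), and Klf9 fell by 2.29 ± 0.25 (5.6e-05). Nr3c1 had 0.17 ± 0.20 (adjusted p = 0.54). In HE2 against HB 1 was higher, Zbtb16 with 2.19 ± 0.31 (0.00043), and 0 were lower, with a median of -0.28, where 9.76% of all genes were higher and 20.7% called in either direction. From HB to HE1, 0 of the 8 met the thresholds in either direction, where 20.9% of all genes did, with a median of -0.23.

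**Figure D4:**
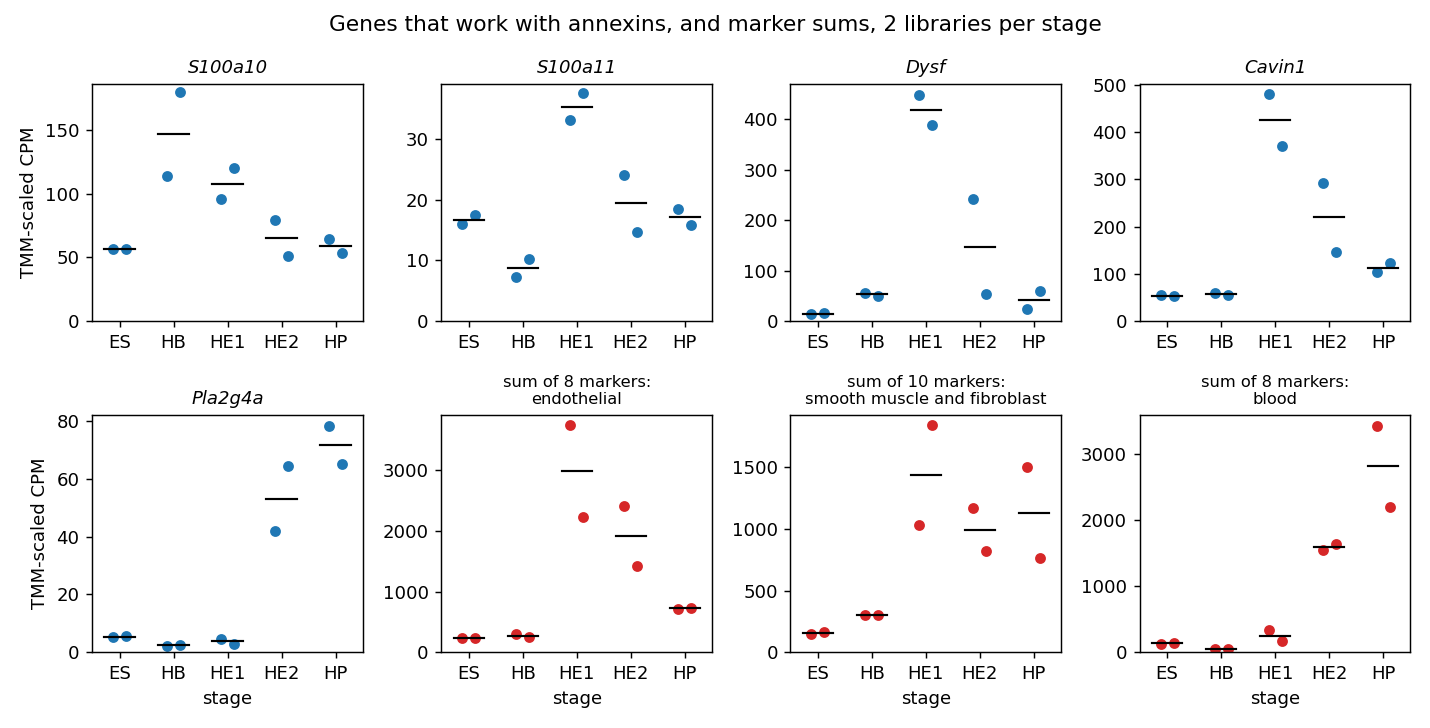
TMM-scaled CPM (vertical axes, linear, 1 scale per panel) by stage of 5 genes that work with annexins (blue) and summed CPM of 3 marker lists (red). Points are the 2 libraries of a stage, with replicate 1 on the left, and bars are their means. By stage mean, S100a10 is highest in HB, S100a11, Dysf and Cavin1 in HE1, Pla2g4a in HP, and endothelial markers are highest in HE1 with 3744 and 2240 CPM. Libraries overlap between HB and HE1 for S100a10, and between HE1 and HE2 for the endothelial sum.

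The genes whose levels followed Anxa1 most closely were sought among 12234 genes at 9 CPM or above in at least 1 stage, by Pearson's r of log2 CPM over the 10 libraries. Since the libraries form 5 stages and Anxa1 is near 0 in 1 of them, r is a description here and mainly reflects the drop in HB. The 8 highest were Thbs1 (0.993), Prss23 (0.988), Vgll3 (0.983), Npnt (0.982), Golga2, Cic, Cd248 and Tnip2 (0.978). Thbs1, which encodes the matrix protein thrombospondin, had 255 ± 10 CPM in ES, 5.83 ± 2.4 in HB, then 509 ± 153 in HE1, 454 ± 69 across HE2 and 587 ± 101 in HP. Vgll3, a cofactor of TEAD factors, had 12.6 ± 0.28, 1.10 ± 0.17, 30.7 ± 16, 22.1 ± 4.3 and 26.3 ± 4.4 CPM in the same order. Golga2, a Golgi matrix protein, ranged only from 44.1 ± 1.7 in HB to 64.0 ± 2.5 CPM in HE1, so that a high r does not mean a change of like size. By rank (Spearman's rho), 1 of these 8 genes stayed among the 8 highest, and by stage means 4 did.

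Anxa1 itself had r = 0.744 with Anxa3, 0.527 with Anxa11, 0.453 with Anxa7 and between -0.0764 and 0.212 with the other members. The closest pairs were Anxa2 with Anxa6 (0.935) and Anxa2 with Anxa5 (0.925), and the most opposed was Anxa2 with Anxa11 (-0.766). Over the 28 pairs the median r was 0.316, and 7 were below 0. By rank the closest pair was instead Anxa1 with Anxa3 (rho = 0.988), which order the libraries almost alike although their ranges differ.

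The sort antigens were checked against the labels. Kdr (FLK1) had a mean of 2.56 CPM in ES and 1120 in HB, Tek (TIE2) 429 CPM in HE1, 222 across HE2 and 62.8 in HP. Itga2b (CD41) had 177 CPM in HE1, 487 across HE2 and 384 in HP, and the CD41- gate of HE1 thus still held Itga2b RNA above the 41.2 CPM of HB. Kit had a mean of 110 CPM in HE1 and 320 and 307 CPM in the later stages. Within HE1, replicate 1 was the higher for Kit (146 and 73.0 CPM), Tek (564 and 294 CPM) and Itga2b (227 and 127 CPM). Kit in HE1 replicate 2 lay within the range of HB (73.3 and 69.3 CPM). Markers of smooth muscle and fibroblasts, of which 10 were listed, summed to 306 and 305 CPM in HB, then 1030 and 1839 in HE1, 1164 and 823 across HE2, and 1498 and 762 in HP, with none at 0 in HE1. Most of the HB sum was Pdgfra with 193 and 196 CPM, which fell to 6.52 and 6.01 CPM in HE1. Pdgfrb did not rise from HB to HE1 either (means of 32.8 and 31.3 CPM), whereas others such as Acta2 did (2.15 and 486 CPM). Many smooth muscle cells and fibroblasts express annexins, and their part in the rise of annexin RNA after HB was not tested. The 8 endothelial markers summed to 295 and 244 CPM in HB, 3744 and 2240 in HE1, and 720 and 727 in HP, where Anxa2, Anxa3, Anxa5 and Anxa6 were lower as well. Within HE1 the higher endothelial sum was in replicate 1, whereas Anxa1, Anxa2, Anxa3 and Anxa5 were higher in replicate 2 and Anxa6 in replicate 1. The summed levels of 7 pluripotency markers (47.4 and 115 CPM) and of 6 cardiomyocyte markers (31.2 and 108 CPM) were higher in HE1 replicate 2 as well. Klf4 made up most of the pluripotency sum in replicate 1, with 39.8 CPM against 26.8 CPM in replicate 2. Each other pluripotency marker was higher in replicate 2, among them Pou5f1 (2.82 and 26.3 CPM) and Dppa5a (1.22 and 21.6 CPM). All 7 pluripotency markers were called as lower in HE2 and in HP than in HE1, as Anxa2, Anxa3, Anxa5 and Anxa6 were. The pluripotency sum was 21.6 and 10.3 CPM across HE2, of which Klf4 gave 17.8 and 7.43 CPM. In ES cells, where that sum was 2725 and 2676 CPM, Anxa2, Anxa3, Anxa5 and Anxa6 were below their HE1 levels. The part of these cells in the annexin levels was not tested.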

How the data were processed

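Nuclear RNA-seq of 10 libraries was used. The authors aligned reads to mm10 with HISAT2 (2.2.1), and per the file headers read pairs were counted by featureCounts on Ensembl exons, reverse-stranded. The deposited counts are not normalized. Pairs overlapping several genes were counted on each, and multi-mapping pairs were not counted, which can lower genes with near-identical copies. The deposited matrix holds 1 score per gene and stage, made by the authors from limma-voom CPM, and served to choose genes and to check stage orders. The authors used edgeR (3.40.2) and limma (3.17) in R (4.2.3).

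Here, counts were filtered with filterByExpr on the stage (22596 genes of the 39019 with a count) and TMM-scaled (factors 0.9545 to 1.132). All 10 libraries entered a quasi-likelihood model of stage alone, fitted with edgeR (4.0.16) in R (4.3.3), with 5 residual degrees of freedom. F tests were adjusted over all tested genes, called at 0.05 and 2-fold. SE was the log2 fold change divided by the root of F. CPM are TMM-scaled, and FPKM are CPM per kb of counted exon. Log2 CPM used a prior count of 2. Totals ranged from 24920434 to 58782055 counts, and the floor of 3 counts covers counting error only, as read pairs carried no molecular identifiers. The model was also run on simulated counts with changes in HE2 alone, larger than most annexin changes called here. The outcome of that run is not given and is not used for the calls.

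The members and lists were chosen with earlier results of these data known. All 8 members and the other annexin genes were named. From each list, at most 4 genes per comparison were named, those called with the largest change that reached 9 CPM in either stage, and S100a10, S100a11, Fpr1 and Fpr2 were given regardless. Nr3c1 lies outside this rule and was chosen after its values were seen. No p-value is given for HE1 against HB, nor for Anxa1 where HB or HE1 is compared. Alternatives were limma-voom (limma 3.58.1), DESeq2 (1.42.0), total counts, no filter, only the libraries compared, a term for the replicate number, a 4-fold threshold and leaving out each library. Python (3.11.15) with pandas (2.3.3), scipy (1.17.1) and matplotlib (3.10.9) was used for tables, sequences and figures.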

Additional observations from a re-analysis of the deposited data

How the results depend on the processing

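With 2 libraries per stage, each stage rests on a single difference for its spread, and with 1 library left out the lone library is assumed to vary like the other stages. limma-voom, DESeq2, total counts, no filter on low counts and the replicate block kept each count of called annexin genes within 1.5 times. The counts here are over all 8 members and include Anxa1, which was chosen on HB and HE1, so that those of HE1 against HB are descriptions. With the 4-fold threshold, 1 gene was higher in HB against ES, 3 in HE1 against HB, 1 in HE2 against HB and 1 in HP against ES, and 0 were lower in HE2 against HE1 and in HP against HE1. With only the 4 libraries compared, 0 were lower in HE2 against HE1, with log2 fold changes of -1.11 to -1.41 and with 171 lower calls over all genes in place of 1217. Leaving out each library in turn gave 3 to 5 higher genes in HE1 against HB (3 without HB replicate 1), 0 to 1 higher and 0 to 4 lower in HE2 against HE1 (0 lower without HE1 or HE2 replicate 2), 0 to 1 higher in HP against HE1, 0 to 1 lower in HP against HE2 and 0 to 1 lower in HP against ES. The cause was not tested.

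Log2 fold changes near 0 changed sign. With 1 library left out, that of Anxa7 in HB against ES ran from -0.023 to 0.098 and was -0.011 without ES replicate 2. For Anxa4 in HE1 against HB it was 0.043 with total counts and 0.018 with only the 4 libraries compared. In HE2 against HB, Anxa2 ran from -0.69 (without HE2 replicate 1) to 0.36 (without HE2 replicate 2) and had 0.00986 without HB replicate 2, and Anxa6 ran from -0.92 to 0.21 with the same HE2 libraries left out. In HP against HE2, Anxa1 ran from -0.20 to 0.40 and had -0.00147 without HP replicate 1, Anxa2 ran from -0.63 to 0.42, Anxa3 from -0.80 to 0.39, Anxa5 from -1.10 to 0.054 and Anxa6 from -0.85 to 0.27, each between the values without HE2 replicate 2 and without HE2 replicate 1. Anxa11 had -0.080 without HP replicate 1. Of these values only the -1.10 of Anxa5 passed the thresholds.

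Same-numbered libraries share only a number. The correlation of their deviations between stages lay between -0.316 and 0.213, and with the replicate block the called annexin genes numbered 3 higher and 2 lower in HB against ES, 5 higher in HE1 against HB and 4 lower in HE2 against HE1, the counts of the model without it. Of the 8 genes most like Anxa1, 1 was shared with the 8 by Spearman's rho and 4 with those by stage means. Shares of the summed level depend on exon length, and without division by it Anxa5 made up 17.9% in HE1 and Anxa7 8.28%, and in HP Anxa7 (25.7%) exceeded Anxa6 (21.1%). Depth limits Anxa1 in HB, where 1 count is 0.0344 and 0.0277 CPM, and the formyl peptide receptors.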
